A study of Oryza sativa Japonica Group with 30 samples.

Results

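The Hsp70 genes of rice described here are 10 loci out of 55801 gene identifiers in the deposited profile of the developing grain. They were named by locus identifier, with earlier results of these data known, and were sorted by the cell compartment in which the encoded chaperone works. There were 3 loci for the endoplasmic reticulum (BiP1, BiP4 and BiP5), 4 for the cytosol, 2 for the plastid and 1 for the mitochondrion. The compartment of each locus comes from the rule that chose it, and no protein sequence was analysed here to check it.

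RNA was taken from whole caryopses, the young grain with its fruit coat, of field-grown rice of the Japonica group at 7 days after pollination. The 30 samples formed 10 groups of 3, from 5 genotypes in 2 conditions. The genotypes were lines overexpressing ONAC127 or ONAC129, mutant lines of ONAC127 or ONAC129 (titled CR), and the wild type ZH11. Through almost all of their growth the heat groups were above 35 °C for about 6 h each day and peaked near 40 °C. The groups under normal cultivation passed 35 °C on 3 days and had a mean daytime temperature of about 30 °C. ONAC127 and ONAC129 are NAC transcription factors. The labels give neither the promoter of the overexpression lines nor the number of independent lines behind a group.

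Hsp70 proteins are chaperones that bind exposed hydrophobic stretches of unfolded proteins and release them in a cycle driven by ATP. J proteins deliver clients and start ATP hydrolysis, and nucleotide exchange factors such as the Hsp110 proteins reset the cycle. Plants keep separate Hsp70 genes for the cytosol, the endoplasmic reticulum, the plastid and the mitochondrion. In cereal endosperm BiP, the Hsp70 of the endoplasmic reticulum, is known for binding storage proteins as they enter that compartment, and a plastid Hsp70 of rice is known to be needed for normal amyloplasts.

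The measured value was 1 pooled mean per gene over all 30 libraries, in normalised counts (reads divided by the size factor, the relative depth, of each library). No value belonged to a sample, genotype or condition, so the effects of ONAC127, ONAC129 and heat on the Hsp70 genes were not computed, and no SD or test accompanies a level. Size factors recovered from the lowest values ranged from 0.551 to 1.64, so 1 read in 1 library was worth between 0.0203 and 0.0605 normalised counts. The levels are not divided by transcript length, and ratios below are ratios of normalised counts. The tissue label was set beside 6 markers, which were chosen with earlier results of these data known. The endosperm genes GluA2 (glutelin), GBSSI (granule-bound starch synthase) and NF-YB1 (a regulator of grain filling) had 47812, 39906 and 4991 normalised counts. LHCB1 of the green fruit coat had 10679 and the oleosin Ole16 of the embryo and aleurone had 24670. OSH1 of the embryo's meristem had 15.3, just under the median of 15.9 over all genes above 0.

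All 10 Hsp70 genes were above 0, as were 40831 of all 55801 genes. Together the 10 genes held 146499 normalised counts, or 1.26% of the profile. The cytosolic genes took most of this, with 76.6% of the sum, followed by the endoplasmic reticulum with 14.2%, the plastid with 8.18% and the mitochondrion with 0.967%. These shares also reflect how many loci the rule names in each compartment. For the mitochondrion it names 1 locus and leaves out 2 other listed ones. Of the 10 genes, 8 reached 1000 normalised counts and 5 reached 10000. Over the whole profile 2109 and 140 genes reached these levels, which is 5.17% and 0.343% of the 40831 genes above 0. The other 2 genes, BiP4 and BiP5, lay far lower, and the highest and lowest Hsp70 gene differed 15073 times.

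**Figure D1:**
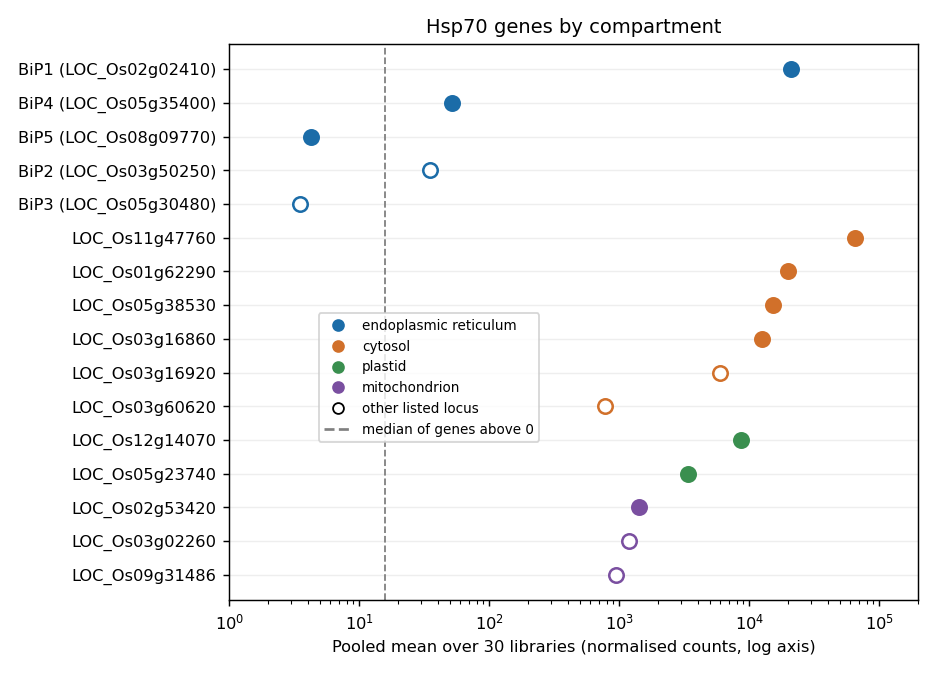
Pooled mean of each Hsp70 gene (filled points) and of other listed Hsp70 loci of the same compartment (open points), in normalised counts on a log axis, with colours for the compartment and a dashed line at the median of all genes above 0 (15.9). The cytosolic genes of the rule lie between 12518 and 64553, while the BiP loci other than BiP1 lie at 51.6 or below.

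In the endoplasmic reticulum, the reads came almost wholly from 1 gene. BiP1 (LOC_Os02g02410, chromosome 2) had 20781 normalised counts and ranked 39 of all genes. BiP4 (LOC_Os05g35400, chromosome 5) had 51.6 and ranked 15370. BiP5 (LOC_Os08g09770, chromosome 8) had 4.28 and ranked 24612, under the 15.9 that marks the median gene above 0. BiP1 thus had 402 times the normalised counts of BiP4 and 4852 times those of BiP5, and BiP4 had 12.1 times those of BiP5. BiP4 and BiP5 are known in rice as genes induced by stress of the endoplasmic reticulum, whereas BiP1 is known as the form abundant in seeds.

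Reads were assigned to the low BiP genes too, though whether all of these reads arose from them was not tested. The pooled mean of BiP5 corresponds to between 70.8 and 211 reads over all 30 libraries, depending on which libraries held them. That of BiP4 corresponds to between 854 and 2547 reads. A pooled mean also caps any single group, because the 10 groups are of equal size: if every BiP5 read lay in 1 group, the mean of that group would be 42.8 normalised counts, and for BiP4 it would be 516. The level of BiP1 within any 1 group is not known, so these caps say nothing of the ratio within that group.

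Further BiP loci known in rice were also low. BiP2 (LOC_Os03g50250) had 34.9 normalised counts and BiP3 (LOC_Os05g30480), which RefSeq lists as a transcribed pseudogene, had 3.52. Over the 5 BiP loci, BiP1 held 99.5% of 20875 normalised counts, and the 4 others summed to 94.3. BiP1 and BiP4 were also compared per kb of gene span in RefSeq, introns included, as the only length at hand. BiP1 then had 5286 and BiP4 had 22.7 normalised counts per kb, a ratio of 233. The BiP genes encode similar proteins, and reads that align to more than 1 of them could have been divided or dropped by the counter, so the small values are the less certain ones.

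Partners of BiP in the folding of secreted proteins and the regulator bZIP50 were read as well. Their values are given side by side because the genes differ in length. PDIL1-1, a protein disulfide isomerase, had 20924 normalised counts, close to the 20781 of BiP1. The lectin chaperones calnexin and calreticulin had 3156 and 2397, and GRP94, the Hsp90 of the endoplasmic reticulum, had 1705. ERdj3B, a J protein of this compartment, had 1004, and bZIP50, a transcription factor of the response to unfolded proteins, had 2198. BiP4 and BiP5, at 51.6 and 4.28, lay below all 6 of these genes.

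In the cytosol the reads were spread over several genes, with 1 ahead. LOC_Os11g47760 (chromosome 11) had 64553 normalised counts, ranked 5 of all genes and held 57.5% of the cytosolic sum of 112263. LOC_Os01g62290 (chromosome 1) had 19886 and ranked 45. LOC_Os05g38530 (chromosome 5) had 15307 and ranked 75, and LOC_Os03g16860 (chromosome 3) had 12518 and ranked 94. The leading gene had 3.25 times the normalised counts of the next one, and the 3 others lay within 1.59 times of each other. The leader had 5.16 times those of the lowest of the 4, against 4852 times between BiP1 and BiP5. These spans depend on which loci the rule names. Against LOC_Os03g60620, a listed cytosolic locus outside the rule with 776 normalised counts, the leader had 83.2 times. The spread between samples is not known, so the order of the 3 lower genes cannot be told from sample variation.

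**Figure D2:**
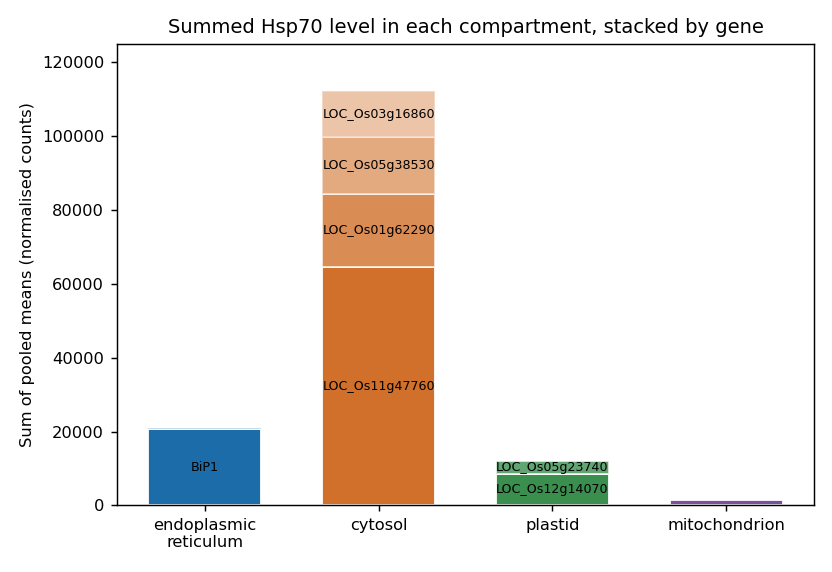
Sum of the pooled means of the Hsp70 genes in each compartment, in normalised counts, stacked by gene. BiP1 alone fills the bar of the endoplasmic reticulum at this scale, while the cytosolic bar of 112263 is built from 4 genes of at least 12518 each.

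Without LOC_Os11g47760 the other cytosolic genes still summed to 47710.5 normalised counts, above the 20837 of the endoplasmic reticulum. BiP1 and the second cytosolic gene, LOC_Os01g62290, lay close together at 20781 and 19886. A further pair of cytosolic Hsp70 loci, listed from general knowledge, were lower than the 4 genes of the rule. LOC_Os03g16920 had 5918 normalised counts and LOC_Os03g60620 had 776. LOC_Os03g16920 lies near LOC_Os03g16860 on chromosome 3, with 6 identifiers between them in the table, the highest of which had 504. Cytosolic Hsp70 genes of plants are close copies of each other, so the share of each single gene depends on how multiply aligned reads were counted, and no source used here names the counter.

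Hsp101 and the listed Hsp90 loci of the cytosol were also among the highly read genes. The disaggregase Hsp101, which works with Hsp70 to recover aggregated proteins, had 17417 normalised counts. The Hsp90 loci HSP81-1 (LOC_Os08g39140) and LOC_Os04g01740, which take over clients from Hsp70, had 14986 and 11181. The Hsp70 genes LOC_Os11g47760 and LOC_Os01g62290, at 64553 and 19886, lay above all of these, and LOC_Os05g38530 and LOC_Os03g16860, at 15307 and 12518, lay within their range. Of the 4 listed J proteins, LOC_Os03g57340 had the highest value with 6747, LOC_Os03g44620 had 2985 and DjA6 had the lowest with 633. The fourth, ERdj3B, is the J protein of the endoplasmic reticulum described above, and no compartment was assigned to the other J proteins. The 4 J proteins summed to 11369.

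Both plastid genes were well read, with an unequal share. LOC_Os12g14070 (chromosome 12) had 8604 normalised counts and ranked 180, and LOC_Os05g23740 (chromosome 5) had 3378 and ranked 545. The first had 2.55 times the value of the second and held 71.8% of the plastid sum of 11982. Plastid Hsp70 acts in the import and folding of proteins in the stroma, in chloroplasts of the green fruit coat as well as in amyloplasts of the endosperm. Whole caryopses hold both tissues, so the share of each in these reads was not measured, and more cells of a tissue cannot be told apart from more RNA per cell.

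The mitochondrial gene was the lowest of the 8 abundant ones. LOC_Os02g53420 (chromosome 2) had 1417 normalised counts, ranked 1509 and stood above 97.3% of all genes. Mitochondrial Hsp70 drives the import of proteins through the inner membrane and folds them in the matrix. The other listed mitochondrial loci, LOC_Os03g02260 and LOC_Os09g31486, had 1182 and 944, so the 3 loci lay within 1.50 times of each other. Together they summed to 3543 normalised counts, against 11982 for the plastid genes. The mitochondrial loci thus had similar values, while in the endoplasmic reticulum BiP1 held nearly all. These shares may also depend on how multiply aligned reads were counted, which is not known.

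**Figure D3:**
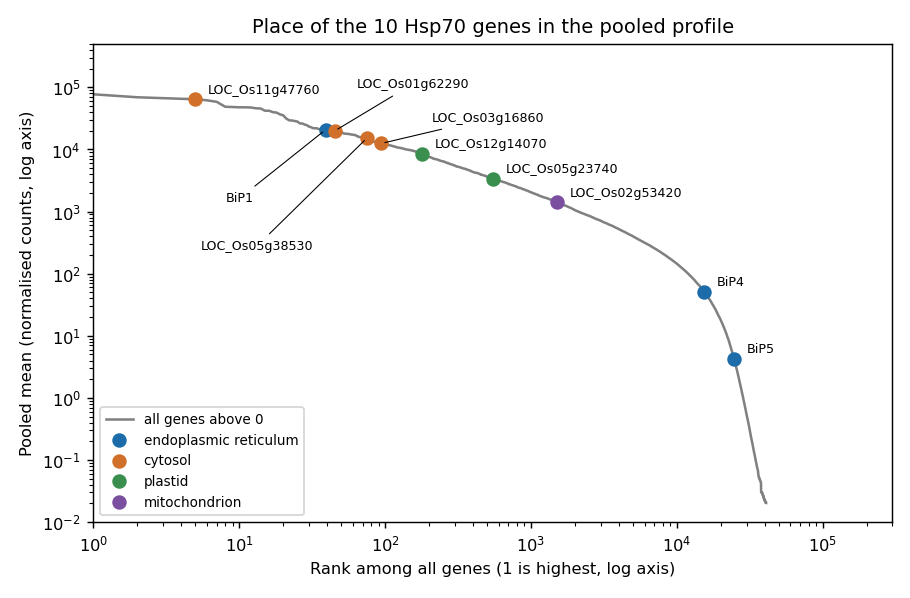
Pooled mean of every gene above 0 against its rank (grey line), both on log axes, with the 10 Hsp70 genes marked and coloured by compartment. The abundant genes lie between ranks 5 and 1509, and BiP4 and BiP5 lie at ranks 15370 and 24612, on the steep part of the curve.

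Set against the rest of the listed family, the 10 genes of the rule carried most of the reads, but both lists were made with earlier results of these data known. They held 90.7% of the summed normalised counts over 28 listed Hsp70 loci, and their median was 10561 against 157 for the 18 others. Of these 18, 4 reached 1000 normalised counts: the cytosolic LOC_Os03g16920 and the mitochondrial LOC_Os03g02260 given above, LOC_Os01g08560 and LOC_Os03g11910. LOC_Os01g08560, of the Hsp110 type, the large relatives of Hsp70 that act as exchange factors, had 2590, and the second Hsp110 locus, LOC_Os05g08840, had 937. The 10 family loci with no compartment stated had a median of 111, from 1653 for LOC_Os03g11910 down to 0.226 for LOC_Os11g08470. The neighbouring loci LOC_Os11g08445 and LOC_Os11g08460 were also below 1, at 0.325 and 0.272, while LOC_Os11g08440 beside them had 155. All 18 were listed from general knowledge, and some family loci may not be on the list.

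The loci listed next to each Hsp70 gene were mostly lower, which is usual for highly read genes. The 8 Hsp70 genes of at least 1000 normalised counts stood above both neighbours, as did 91.7% of all 2107 genes of that level with a locus on either side. Of these Hsp70 genes, 6 stood above both by at least 10 times, against 56.0% of the same background. Among the 20 neighbours 4 reached 1000, against 3.78% of all genes. The neighbours of other genes of at least 1000 were not counted, so this share has no background matched for level. LOC_Os11g47760 had 900 times the value of its higher neighbour (71.7), and LOC_Os03g16860 had 111 times that of its own (113). BiP1, LOC_Os01g62290, LOC_Os12g14070 and LOC_Os02g53420 had between 16.1 and 19.9 times, and the higher neighbours of BiP1 and LOC_Os01g62290 had 1146 and 1085. LOC_Os05g38530 had 1.95 times the value of LOC_Os05g38520, which lies before it and had 7856 normalised counts. LOC_Os05g23740 had 1.86 times the value of LOC_Os05g23720, which had 1818. BiP4 and BiP5 lay below their higher neighbours, which had 249 and 31.6. Whether LOC_Os05g38530 overlaps LOC_Os05g38520, or LOC_Os05g23740 overlaps LOC_Os05g23720, was not examined. It is not stated whether counting used strand, so reads of such a pair could not be told apart if its loci overlap.

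**Figure D4:**
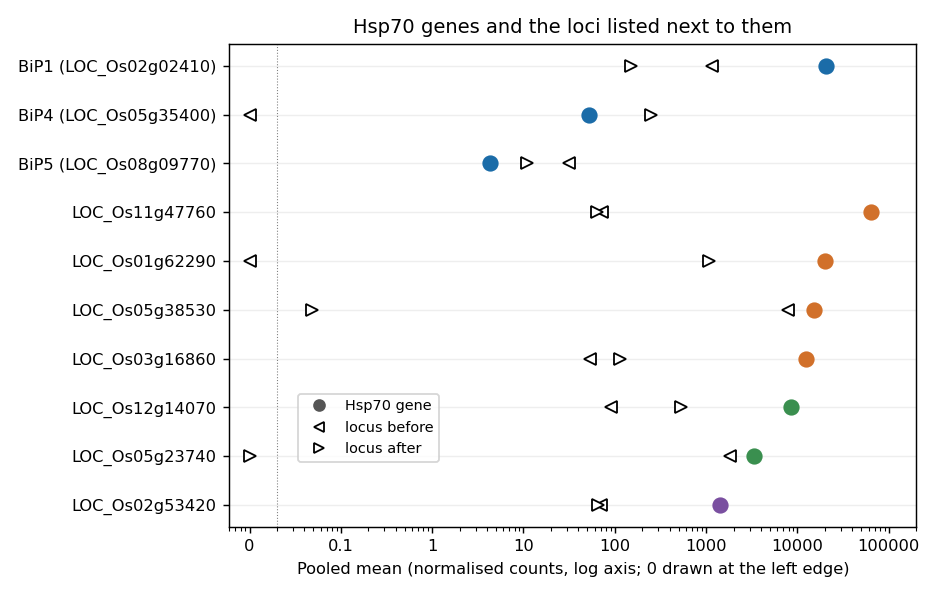
Pooled mean of each Hsp70 gene (filled circle) and of the locus listed before it and after it (open triangles pointing left and right), in normalised counts on a log axis with values of 0 drawn at the left edge. LOC_Os11g47760 stands alone at 64553 beside neighbours of 71.7 and 64.2, while LOC_Os05g38530 at 15307 has a neighbour of 7856.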

How the data were processed

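CASAVA 1.7, HISAT2 2.0.5 and DESeq2 are named in the submitters' processing notes. Which counter, genome build, annotation and strand setting were used is not given in the sources used. The 8 tables received were identical and held 55801 locus identifiers and a baseMean, which per the file headers is a pooled mean normalised count. Its unit is a deposited signal: counts divided by size factors, averaged over 30 samples. The planned tests of genotype and heat need values per sample and were not run. The 10 members and all lists were chosen with earlier results of these data known. The text names all members, the tissue markers, and of each group in the lists the highest, the lowest and those with a symbol. LOC_Os04g01740 is named outside this rule. LOC_Os03g44620, the loci beside LOC_Os11g08470 and the neighbours of members were named after their values were seen.

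Chromosomes were read from the identifiers. Of 46 listed loci, 20 had a symbol sought in the RefSeq table of assembly ASM3414082v1, where 0 of 39387 genes carry a LOC_Os identifier. For 16 loci the symbol lay on the same chromosome at a similar relative place. Its start, as a share of the highest start, was within 0.1 of the identifier's number as a share of the highest number. The other 4 (BiP5, GRP94, calnexin and Ole16) had no symbol there. The compartments of the 10 members come from the rule that chose them, and the other identities and compartments rest on general knowledge. The names ERdj3B, HSP81-1 and DjA6 were set from this table after the values were seen, and ERdj3B replaced a wrong symbol. Their matches are among the 16 and are therefore no check of these loci. Size factors were recovered from values that are not sums of smaller ones within 1e-11, which gave 30 steps. Only values below 3.9 times the lowest were searched. The method was tested on simulated counts whose size factors were drawn from a range like the recovered one, with no variation between samples beyond depth and counting. Other ranges were not tried. The lowest and highest size factors bound the reads behind a pooled mean, and the cap on a group mean is the pooled mean times the 10 groups of equal size. Values were computed with pandas 2.3.3 and numpy 2.4.6 in Python 3.11.15 and drawn with matplotlib 3.10.9.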

Additional observations from a re-analysis of the deposited data

How the results depend on the processing

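The ratio of the cytosolic to the endoplasmic reticulum sum was 5.39. It was 3.11 with the highest gene of each, 4.04 with means, 5.70 with the other listed loci added, and, in settings chosen after seeing the data, 341 with medians and 2.29 without LOC_Os11g47760. The endoplasmic reticulum had 1.74 times the plastid sum, 2.42 times with the highest genes and 1.16 times with means. With medians, also chosen after seeing the data, the order reversed to 0.00862, because the median of the endoplasmic reticulum is BiP4. The plastid had 8.46 times the mitochondrial sum, 6.07 times with the highest genes, 4.23 times with means or medians and 3.38 times with the other loci. The members' share of the family sum, 90.7%, was 92.2% over loci of a stated compartment, 84.5% without the highest member and 92.7% without the Hsp110 loci, the last chosen after seeing the data. The ratio of BiP1 to BiP4, 402, was 233 per kb of gene span. Percentiles among genes above 0, or among genes of at least 10, were lower for every member that could be placed.

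Scaling by coding length and summing close copies were not run, because no protein or transcript sequences were used here. Leaving out replicates, another normalisation and the other settings planned for the tests need values per sample and were not run. No paired analysis was possible because a mean over all samples holds no replicates. A pooled mean hides any change confined to 1 group.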
